A study of Drosophila melanogaster with 12 samples.

Results

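CG4962, NT5E-2, CHKov1, Mur2B and Dph1 are 5 Drosophila genes whose transcripts were lower in slbo mutant than in wild-type ovary cells, in the migratory and in the nonmigratory cell fraction. They are 5 of 10843 genes with a probe set of their own on the arrays. Each was represented by 1 probe set that the platform annotation gives to that gene symbol alone, and the 5 probe sets all passed the filter on low signals. The genes were chosen by their log2 differences between slbo mutant and wild-type arrays in these same data, so those falls are described here without a test. The rule named no numerical threshold.

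The study profiled cells of adult female ovaries on 12 Affymetrix arrays in 4 groups of 3 biological replicates. All flies carried the slbo-Gal4 driver and UAS-mCD8-GFP, so the cells in which slbo-Gal4 is active displayed CD8 and could be pulled out on antibody-coated magnetic beads. The bead-bound cells are called migratory and the remaining cells nonmigratory. slbo mutant migratory cells came from flies labelled slbo-Gal4, slboe7b/UAS-mCD8-GFP,slboLy6, a combination of 2 mutant slbo alleles, and wild-type migratory cells from slbo-Gal4, UAS-mCD8-GFP/+ flies. The slbo mutant and wild-type nonmigratory cells were the unbound cells of the same 2 genotypes. The females were 2 to 7 days old. The age is missing from the labels of slbo nonmigratory replicate 2, and for slbo nonmigratory replicate 3 only the title gives the genotype. The labels do not say whether the mutant and wild-type stocks shared a genetic background, so the slbo alleles and any other difference between the stocks cannot be told apart.

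slbo encodes a C/EBP family transcription factor. In the ovary it is required in the border cells, a small cluster of follicle cells that leaves the epithelium and moves between the nurse cells to the oocyte, and the driver made from it also marks other follicle cells. NT5E-2 is named as a 5'-nucleotidase, an enzyme type that in mammals acts at the cell surface to turn AMP into adenosine. CHKov1 belongs to a family of choline kinase-like proteins, and natural alleles of it that carry a transposon insertion have been linked to resistance to insecticide and to sigma virus. Mur2B is a mucin-related gene, and mucins are heavily glycosylated secreted or surface proteins. Dph1 is named after the yeast enzyme of the opening step of diphthamide synthesis, a modification of a histidine of translation elongation factor 2. No role is given here for CG4962.

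Signals below are MAS5 signals as deposited, on a linear scale with arbitrary units. Log2 differences were computed after adding 7.50 to each signal, and limma fitted them over all 8978 features tested. A feature is a gene, represented by its brightest probe set, or a probe set without a single gene. A call is a Benjamini-Hochberg adjusted p under 0.05 over those features. Background on an array was taken as the 95th percentile of 23 control probe sets for transcripts that fly RNA lacks, and lay between 24.95 and 50.88 over the 12 arrays. Replicate arrays of a group correlated at 0.918 to 0.951 over the features tested. The slbo transcript itself had a mean signal of 43.6 ± 8.17 in slbo migratory and 213 ± 55.7 in wild-type migratory cells (SD, n = 3 each), and 63.1 ± 38.2 in slbo nonmigratory and 126 ± 20.2 in wild-type nonmigratory cells. It was called lower in slbo migratory cells (log2 -2.09, SE 0.404, limma adjusted p = 0.0130) but not in slbo nonmigratory cells (log2 -1.11, adjusted p = 0.351). The genotypes did not overlap in nonmigratory cells either, which was also so for 7.87% of features in the same direction. The difference between these 2 falls of slbo was not called (log2 -0.98, 95% interval -2.20 to 0.24, limma adjusted p = 0.787). The call in migratory cells ended without slbo migratory replicate 1 (adjusted p = 0.0513) or 3 (adjusted p = 0.0607), or wild-type migratory replicate 1 (adjusted p = 0.0611). The slbo migratory signals of 44.3, 51.4 and 35.1 stood just above the background of their arrays, 40.5, 50.88 and 33.43. Of 7 measured marker genes of border and migrating follicle cells, 5 were tested, and in wild type only sn, the fascin gene, was called higher in migratory than in nonmigratory cells (log2 0.87, adjusted p = 0.0230).

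CG4962 showed the largest fall of all features tested in either fraction. Its signals were 23.9, 24.0 and 25.1 in slbo migratory cells, against 1517.0, 1179.7 and 1245.0 in wild-type migratory cells. In nonmigratory cells they were 29.3, 12.0 and 58.0 in the slbo mutant, against 654.6, 407.5 and 401.1 in wild type. The groups of the 2 genotypes were far apart in both fractions, and 5 of the 6 mutant arrays were not above background (3 migratory and 2 nonmigratory). Mean signals fell to 24.3 ± 0.666 in slbo migratory cells, against 1314 ± 179 in wild-type migratory cells, and to 33.1 ± 23.2 in slbo nonmigratory cells, against 488 ± 145 in wild-type nonmigratory cells (SD, n = 3 each). Since the mutant means lay under background, the falls are given as bounds, the wild-type mean against the mean of the higher of mutant signal and background on each mutant array, both as means of log2 signals. These bounds allow for background alone, not for the spread between arrays, and some alternative fits gave smaller falls. The bound for CG4962 was 31.9-fold lower in slbo than in wild-type migratory cells and 13.1-fold lower in slbo than in wild-type nonmigratory cells. The fitted log2 differences were -5.37 (SE 0.337) and -3.74 (SE 0.337).

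NT5E-2 was the next lowest feature in both fractions. Its signals were 45.3, 35.7 and 7.3 in slbo migratory cells, against 288.6, 337.1 and 254.6 in wild-type migratory cells. In slbo nonmigratory cells they were 12.4, 18.4 and 17.2, against 164.2, 132.9 and 117.5 in wild-type nonmigratory cells. As for CG4962, every wild-type array was above background while 5 of the 6 mutant arrays were not, here 2 migratory and 3 nonmigratory. The mutant means of 29.4 ± 19.8 in migratory and 16 ± 3.17 in nonmigratory cells lay under background, against wild-type means of 293 ± 41.5 and 138 ± 23.8 (SD, n = 3 each). The bounds for NT5E-2, with the same limits, were 6.85-fold lower in slbo than in wild-type migratory cells and 3.97-fold lower in slbo than in wild-type nonmigratory cells. Some alternative fits gave smaller falls here too. The fitted log2 differences were -3.21 (SE 0.397) and -2.63 (SE 0.397). The migratory value rested in part on the faintest array: without slbo migratory replicate 3, which had the signal of 7.3, it was -2.65.

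The other 3 genes kept a measurable signal in the mutant and had smaller differences. CHKov1 had signals of 132.1, 162.5 and 154.3 in slbo migratory cells, against 376.1, 464.5 and 330.0 in wild-type migratory cells. In nonmigratory cells it had 108.2, 94.2 and 66.4 in the slbo mutant, against 191.1, 171.6 and 214.3 in wild type. No array was at background, and the genotypes did not overlap in either fraction. The mutant mean was 38.3% of the wild-type mean in migratory cells and 46.6% in nonmigratory cells, with log2 differences of -1.33 and -1.06 (SE 0.209 each). CHKov1 had the smallest SE of the 5 genes.

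Mur2B was the only one of the 5 genes with the larger log2 difference in nonmigratory cells. It had signals of 63.2, 110.4 and 144.9 in slbo migratory cells, against 189.8, 188.5 and 261.2 in wild-type migratory cells. In slbo nonmigratory cells they were 50.3, 49.4 and 35.3, against 102.8, 162.0 and 225.2 in wild-type nonmigratory cells. The genotypes did not overlap in either fraction, and 1 mutant nonmigratory array was not above background. The mutant mean was 49.8% of the wild-type mean in migratory cells (log2 -1.01, SE 0.321) and 27.6% in nonmigratory cells (log2 -1.65, SE 0.321).

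Dph1 had signals of 135.5, 139.2 and 81.8 in slbo migratory cells, against 250.2, 330.0 and 286.2 in wild-type migratory cells. In slbo nonmigratory cells it had 155.7, 141.1 and 102.8, against 219.8, 250.4 and 205.3 in wild-type nonmigratory cells. Every mutant array lay under every wild-type array of its fraction, and all were above background. The mutant mean was 41.1% of the wild-type mean in migratory cells and 59.2% in nonmigratory cells, with log2 differences of -1.26 and -0.74 (SE 0.228 each).

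**Figure D1:**
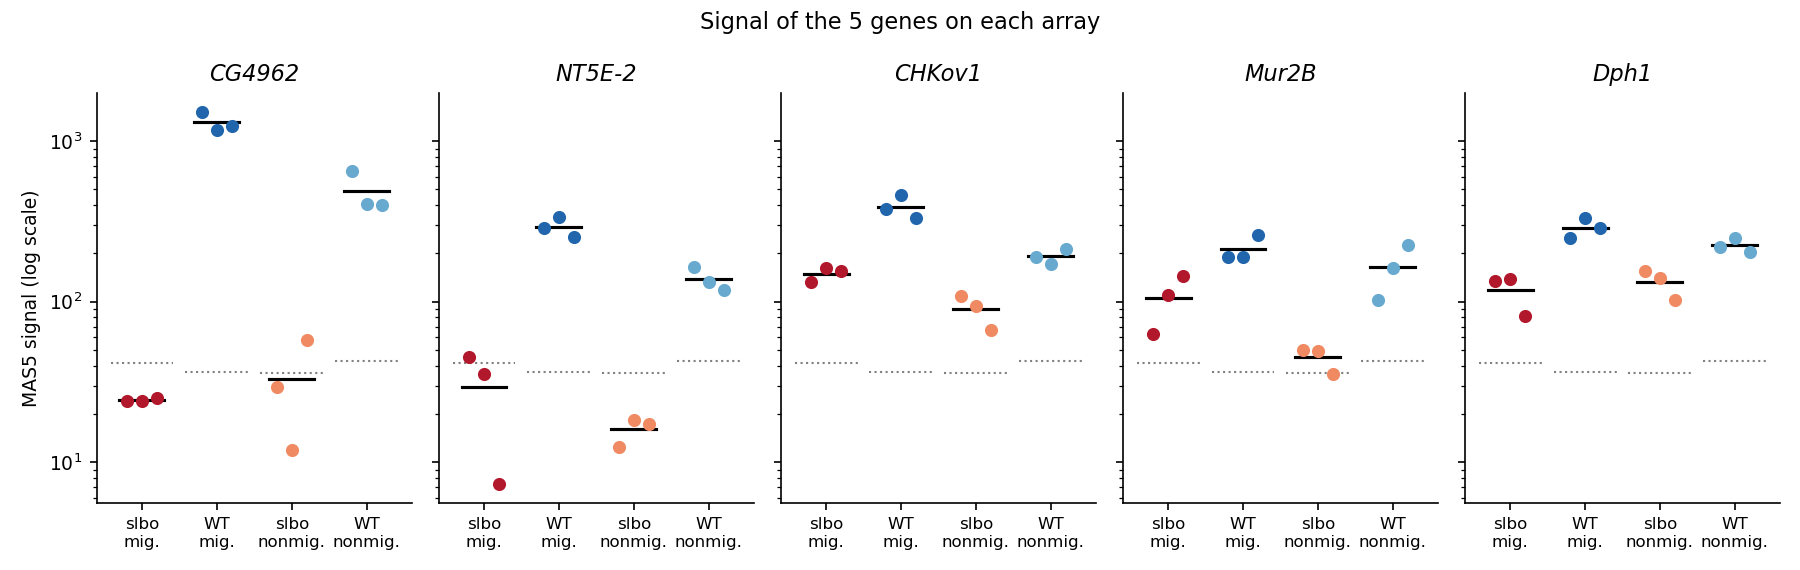
MAS5 signal on a log axis of each gene on each of the 12 arrays. Points are arrays in replicate order, solid bars are group means (n = 3) and dotted bars are the background averaged over the arrays of the group. CG4962 and NT5E-2 lie at or under background on 5 of 6 mutant arrays, while CHKov1 and Dph1 stay above it on every array.

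As a description of how the choice sits among all features, 4 of the 5 genes were past the call threshold as lower in slbo migratory cells, where 0.802% of features were, and 4 of 5 in slbo nonmigratory cells, where 0.356% were. Mur2B missed it in migratory and Dph1 in nonmigratory cells. The genes were chosen on these falls, so the counts say where the choice lies and are no test of it. The 5 genes had no overlap between genotypes in either fraction, as had 8.81% of features in migratory and 7.87% in nonmigratory cells in the same direction. Ordered by the mean of the 2 log2 differences from the lowest, CG4962 stood at place 1 of 8978, NT5E-2 at 2, Mur2B at 16, CHKov1 at 20 and Dph1 at 46. In all, 13 features (0.145%) were called lower in both fractions, and CG4962, NT5E-2 and CHKov1 were 3 of them. The others with a gene symbol other than a CG number were cpb, capping protein beta (log2 -1.15 in migratory and -0.92 in nonmigratory cells), the follicle cell gene Fcp3C (-0.72 and -0.93), the tubulin gene alphaTub84D (-0.65 and -0.86), the proteasome ATPase gene Rpt5 (-0.89 and -0.59) and the superoxide dismutase gene Sod3 (-0.66 and -0.61). That count depended on single arrays, and was 4 without slbo nonmigratory replicate 2, 5 without wild-type nonmigratory replicate 1, 6 without slbo nonmigratory replicate 3, 7 without slbo nonmigratory replicate 1 and 8 without wild-type nonmigratory replicate 2.

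**Figure D2:**
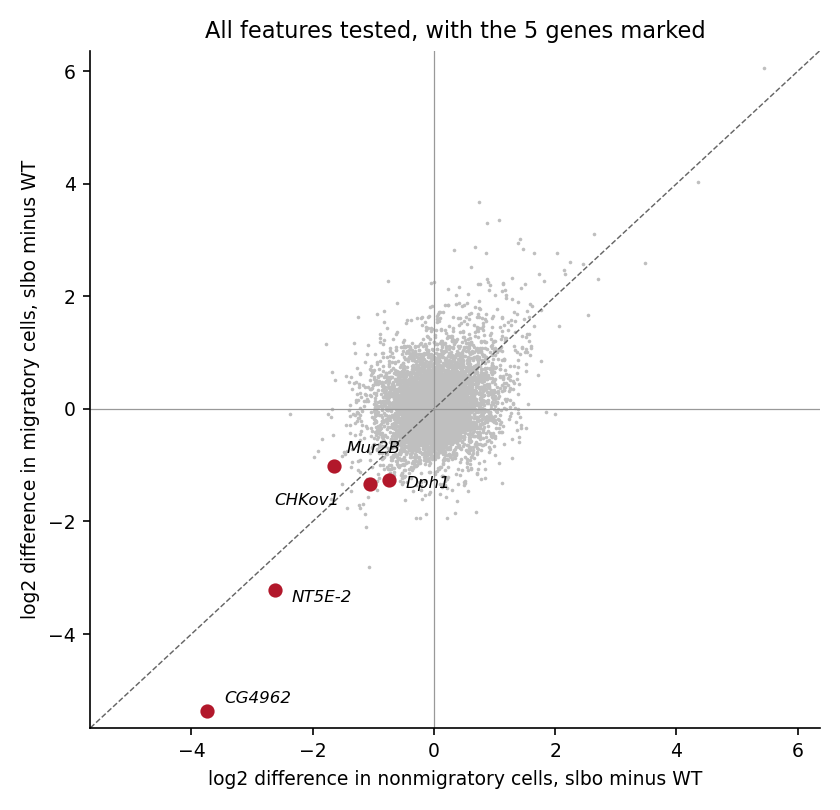
Log2 differences, slbo minus wild type, of the 8978 features tested, in nonmigratory (x axis) and migratory (y axis) cells, with the 5 genes in red. The dashed line marks equal differences. CG4962 at -3.74 and -5.37 and NT5E-2 at -2.63 and -3.21 lie apart from the other features, whereas Mur2B, CHKov1 and Dph1 lie at the edge of the main cloud.

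Whether the fall was alike in the 2 fractions was asked with the genotype by fraction interaction, the log2 fall in migratory cells minus that in nonmigratory cells. None of the 5 genes was called, and 0.0% of features were. At an unadjusted p under 0.05, 603 of 8978 features were below the threshold by limma. The genes were chosen on the falls whose difference this is, so the result holds for these 5 genes as chosen. Choosing genes low in both fractions also limits how far this difference can go, so the lack of calls is no fair test of likeness. A p that misses the threshold does not show that the falls were equal, and the intervals remained wide.

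CG4962 had the lowest fitted interaction of the 5 genes (log2 -1.63, 95% interval -2.64 to -0.61, unadjusted p = 0.00395, limma adjusted p = 0.621). Its mutant means were under background in both fractions, so neither fall has a measured size and the sizes of the falls cannot be compared. The value is the difference between fractions in the mutant (log2 -0.18, between signals under background) minus that in wild type (log2 1.45). With every signal raised to at least background, a setting chosen after seeing the data, the interaction was -1.30 (adjusted p = 0.522). The same limit applies to NT5E-2 (log2 -0.58, interval -1.78 to 0.62, adjusted p = 0.889), whose value was -0.80 with the raised signals. With 1 array left out the NT5E-2 value ran from -0.94 to -0.018. The value of -0.018 came without slbo migratory replicate 3, the array with the signal of 7.3.

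For the other 3 genes the mutant means were above background, with 1 mutant nonmigratory array of Mur2B not above it. CHKov1 had the narrowest interval (log2 -0.27, interval -0.90 to 0.36, adjusted p = 0.905). The difference was -0.52 for Dph1 (interval -1.20 to 0.17, adjusted p = 0.801) and 0.64 for Mur2B (interval -0.33 to 1.61, adjusted p = 0.842). CHKov1 and Dph1 thus had the larger estimate of the fall in migratory cells and Mur2B the smaller, and each interval included 0.

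**Figure D3:**
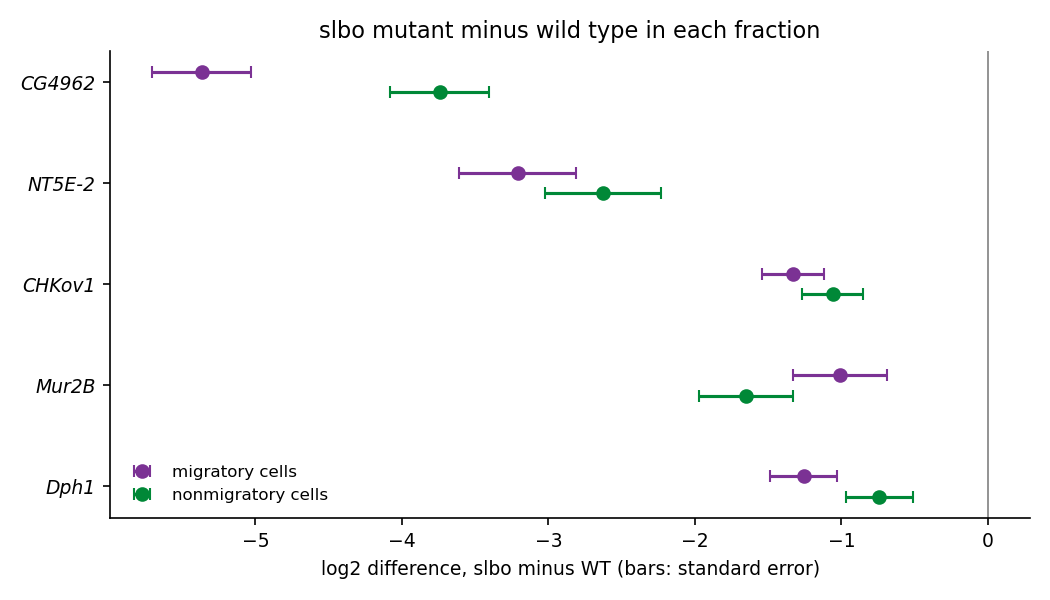
Fitted log2 difference, slbo minus wild type, of each gene in migratory and nonmigratory cells, with standard errors as bars (n = 3 arrays per group). The values lie below 0 for all 5 genes, which were chosen for that, and Mur2B alone has the lower value in nonmigratory cells.

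**Figure D4:**
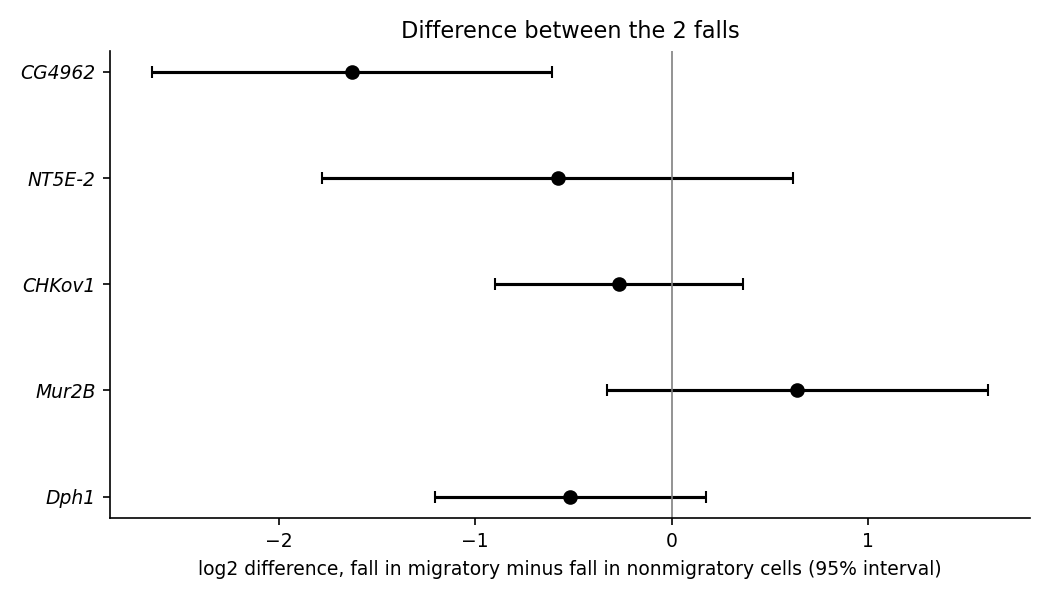
Genotype by fraction interaction of each gene on the log2 scale, with 95% intervals from the fit. Negative values mean a larger fitted fall in migratory cells, which for CG4962 and NT5E-2 rests on mutant signals under background. The interval of CG4962 runs from -2.64 to -0.61 before adjustment over 8978 features, and those of the other 4 genes include 0.

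The comparison of fractions within a genotype was not part of the rule that chose the genes, although it uses the same arrays. In wild type all 5 had higher mean signals in migratory than in nonmigratory cells, and 2 were called higher, where 4.27% of features were. CG4962 averaged 1314 in migratory and 488 in nonmigratory cells (2.72-fold, log2 1.45, SE 0.337, limma adjusted p = 0.0137), with no overlap of arrays. CHKov1 averaged 390.2 ± 68.3 in migratory and 192 ± 21.4 in nonmigratory cells (1.98-fold, log2 0.98, SE 0.209, adjusted p = 0.00803), again with no overlap. CG4962 was no longer called when an array was left out in 3 of 12 cases. The adjusted p was 0.0657 without replicate 1 of the wild-type migratory arrays (log2 1.34), and 0.0671 and 0.0537 without replicates 2 and 3 of the wild-type nonmigratory arrays (log2 1.34 and 1.33). The CHKov1 call held under all 24 alternatives run, with adjusted p between 0.00464 and 0.0424.

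NT5E-2 averaged 293 in wild-type migratory and 138 in wild-type nonmigratory cells, also without overlap, but was not called (log2 1.05, SE 0.397, adjusted p = 0.125). Over its 24 alternatives the adjusted p ranged from 0.0168 to 0.260, and 4 of them passed. Counting it, 3 of the 5 genes had no overlap in this direction, as had 12.3% of features. Mur2B, with 213 ± 41.6 in migratory and 163 ± 61.2 in nonmigratory cells (log2 0.42, SE 0.321, adjusted p = 0.519), and Dph1, with 289 ± 39.96 and 225 ± 23.0 (log2 0.34, SE 0.228, adjusted p = 0.438), overlapped between the fractions. The median log2 difference of the 5 genes was 0.98, and that of all features 0.01.

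In the slbo mutant 1 of the 5 genes was called higher in migratory cells, where 3.72% of features were. CHKov1 averaged 150 ± 15.7 in migratory and 89.6 ± 21.3 in nonmigratory cells without overlap (1.64-fold, log2 0.71, SE 0.209, adjusted p = 0.0456). That call was borderline. It held in 5 of 24 alternatives, with adjusted p between 0.0300 and 0.153, and leaving out any array other than wild-type migratory replicate 2 ended it. The log2 difference of CHKov1 stayed between 0.53 and 0.85 throughout.

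Mur2B averaged 106 ± 41.0 in slbo migratory and 45.0 ± 8.41 in slbo nonmigratory cells, also without overlap (log2 1.06, SE 0.321, adjusted p = 0.0540). It passed the threshold in 7 of 24 alternatives, with adjusted p between 0.0215 and 0.194. These 2 genes had no overlap in this direction, as had 15.0% of features. Dph1 averaged 119 ± 32.1 in slbo migratory and 133 ± 27.3 in slbo nonmigratory cells (log2 -0.17, SE 0.228, adjusted p = 0.722), and its arrays overlapped. For CG4962 and NT5E-2 both mutant fractions lay under background, so no fold between them is given.

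**Figure D5:**
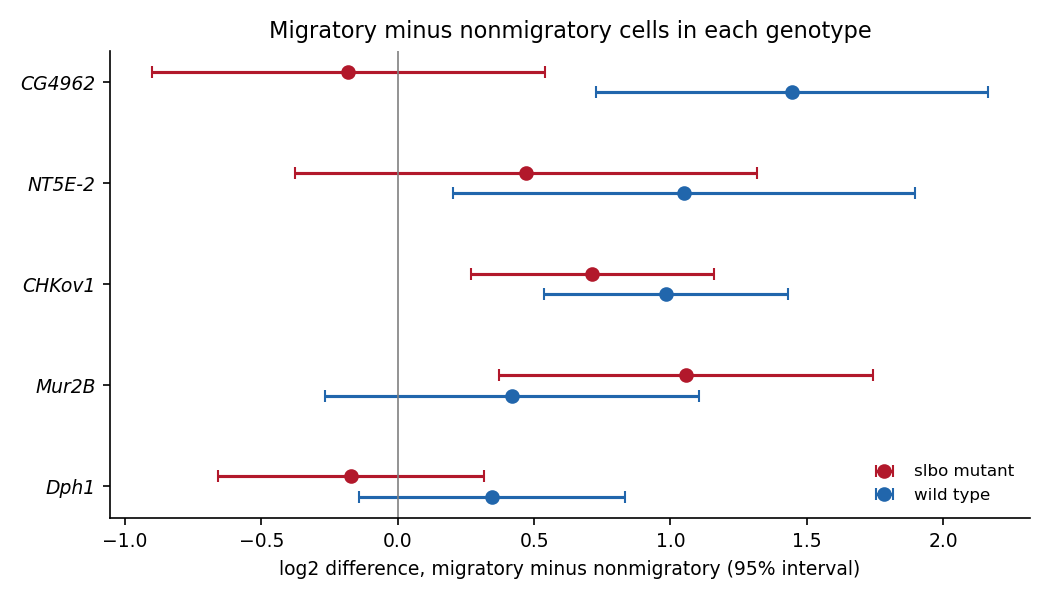
Log2 difference, migratory minus nonmigratory cells, of each gene in slbo mutant and wild-type ovaries, with 95% intervals from the fit (n = 3 arrays per group). CHKov1 is above 0 in both genotypes, at 0.71 and 0.98, and the slbo values of CG4962 and NT5E-2 compare signals under background.

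Placed in order from the lowest mean, the 4 groups of CHKov1 ran from slbo nonmigratory to slbo migratory, wild-type nonmigratory and wild-type migratory cells, and no neighbouring groups overlapped. Dph1 differed in that slbo migratory cells were lowest, followed by slbo nonmigratory, wild-type nonmigratory and wild-type migratory cells, with overlap between the 2 mutant fractions and between the 2 wild-type fractions. For Mur2B the order was slbo nonmigratory, slbo migratory, wild-type nonmigratory and wild-type migratory cells, and only the slbo nonmigratory arrays were clear of their neighbours. In CG4962 and NT5E-2 the 2 mutant groups overlapped each other, and wild-type nonmigratory and wild-type migratory cells followed, each clear of the group before it.

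The gene profiles resembled each other mainly through the group differences. Over the 12 arrays the 10 pairs of these genes had Pearson correlations of log2 signal from 0.640 to 0.940, with a median of 0.844, and low mutant signals were what the genes were chosen for. After each group's mean was subtracted, the 10 correlations ran from -0.728 (NT5E-2 with Mur2B) to 0.661 (NT5E-2 with Dph1), with a median of -0.189. Both of these extremes involve NT5E-2, whose slbo migratory signals of 45.3, 35.7 and 7.3 were not above background on 2 of 3 arrays. Correlations of CG4962 and NT5E-2 within groups thus include variation of signals under background. Among other named genes, those most like the mean standardized profile of the 5 over the 12 arrays were Rpt5 (r = 0.949), Sod3 (r = 0.937), cpb (r = 0.933), alc (r = 0.923), Acadvl (r = 0.920), named as an acyl-CoA dehydrogenase, and Pss (r = 0.907), named as a phosphatidylserine synthase. Rpt5, for example, had mean signals of 1481 in slbo migratory and 2741 in wild-type migratory cells, and 1515 in slbo nonmigratory and 2290 in wild-type nonmigratory cells. With group means subtracted 6 of the 10 pairs correlated negatively, so the mean of the 5 genes describes no profile common to them. Nearest to that mean were HP5 (r = 0.920), mxc (r = 0.880), Ge-1 (r = 0.873) and rumpel (r = 0.864). The points share arrays and scaling, and these were the highest values among all named genes tested.

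Few related genes were called between genotypes, and few features were in all. Of 10 other nucleotidase and adenosine genes tested, 0 were called in slbo against wild-type migratory cells, where 1.94% of features were called in either direction, and 0 in nonmigratory cells, where 0.668% were. Their medians were 0.14 and 0.15 on the log2 scale. The largest differences among them were 0.53 in migratory cells (adjusted p = 0.751) and 1.0 in nonmigratory cells (adjusted p = 0.607), both of the adenosine receptor gene AdoR. Its wild-type means of 31.4 in migratory and 36.1 in nonmigratory cells lay under the mean background of 36.7 and 42.5, so these differences have no measured size. The nucleotidase gene veil, which lies next to NT5E-2 in the annotation, had log2 differences of -0.10 (SE 0.118) and -0.11 (SE 0.118). Between fractions, Ent2, a nucleoside transporter gene, was called lower in slbo migratory cells (log2 -0.44, adjusted p = 0.0186), where 8.92% of features were called in either direction. In wild type 0 of the 10 were called and 9.19% of features were.

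Of 8 other diphthamide and elongation factor genes tested, 0 were called between genotypes in either fraction, with medians of -0.11 in migratory and -0.01 in nonmigratory cells. Dph2, whose yeast counterpart works with Dph1, had log2 differences of -0.24 (SE 0.213) in migratory and 0.05 (SE 0.213) in nonmigratory cells. Between fractions, Dph5, named after the methyltransferase of the pathway, was called lower in migratory cells of the slbo mutant (log2 -0.90, adjusted p = 0.00436) and of wild type (log2 -0.88, adjusted p = 0.00406). The elongation factor gene eEF1delta was lower in slbo migratory cells (log2 -0.56, adjusted p = 0.00981). In these comparisons Dph1 itself was not called. Of all features, 8.92% were called in either direction between the slbo mutant fractions and 9.19% between the wild-type fractions.

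Mucin genes were often faint. Of 18 other mucin and mucin-related genes measured, 9 passed the filter and 8 were not above background on any array. One of the 9, Muc12Ea, was called lower in slbo than in wild-type nonmigratory cells (log2 -1.25, SE 0.242, adjusted p = 0.0312), with -0.92 in migratory cells (SE 0.242, adjusted p = 0.0705). In migratory cells 0 were called, and the largest difference went the other way, in Muc11A (log2 1.25, SE 0.532, adjusted p = 0.317). The wild-type migratory mean of Muc11A was 30.1, under the mean background of 36.7 in that group. The medians of the 9 were 0.46 in migratory and -0.31 in nonmigratory cells. Between fractions Muc4B and Muc91C were called higher in migratory cells of the slbo mutant (log2 1.15, adjusted p = 0.00763, and log2 1.12, adjusted p = 0.00725) and of wild type (log2 0.81, adjusted p = 0.0472, and log2 0.81, adjusted p = 0.0407). Of all features, 3.72% were called higher in migratory cells of the slbo mutant and 4.27% in those of wild type. CHKov2, the neighbour and relative of CHKov1, had signals between 4.5 and 36.5 on its 2 probe sets, and JhI-26 between 5.9 and 70.8. Neither passed the filter.

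Some genes typical of other cell types were called between genotypes as well, most of them gut genes. Of 29 gut genes tested (30 measured, none of them under background on all arrays), 13 were called higher in slbo than in wild-type migratory cells, where 1.14% of features were, and 7 in nonmigratory cells, where 0.312% were. Their summed signal was 38624 to 52930 in slbo migratory and 5693 to 15544 in wild-type migratory arrays, and 19750 to 27150 in slbo nonmigratory and 5307 to 12270 in wild-type nonmigratory arrays. Of 15 follicle cell eggshell and yolk genes, 2 were called lower in slbo than in wild-type migratory cells and 5 in nonmigratory cells, where 0.802% and 0.356% of features were. Their sums were 152187 to 199607 in slbo migratory and 178780 to 218702 in wild-type migratory arrays, and 138257 to 155243 in slbo nonmigratory and 192891 to 206064 in wild-type nonmigratory arrays. Of 5 border and migrating follicle cell genes tested, only slbo was called lower in migratory cells and 0 were called in nonmigratory cells. Sums of the 7 measured, slbo included, were 722.6 to 870.9 in slbo migratory and 1248.2 to 1324.0 in wild-type migratory arrays, without overlap. In nonmigratory arrays they were 777.7 to 847.6 in the slbo mutant and 739.8 to 897.8 in wild type. Of 10 germline genes tested 0 were called, with medians of 0.74 in migratory and 0.69 in nonmigratory cells. Sums of the 11 measured overlapped in migratory cells, 1650 to 2207 in slbo and 1044 to 1764 in wild-type arrays. In nonmigratory cells they did not, at 1555 to 1658 in slbo and 890 to 1230 in wild-type arrays. Also 0 of 13 muscle genes (medians 0.06 and 0.10) and 0 of 2 fat body genes were called. Of 5 hemocyte genes Hml, NimC1, eater and Sr-CI were not above background on any array, and Pxn was called higher in the slbo mutant (log2 1.48 in migratory and 1.66 in nonmigratory cells).

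Between fractions, gut genes were called higher in slbo migratory than in slbo nonmigratory cells in 8 of 29 cases, where 3.72% of features were, and in wild-type migratory cells in 4 of 29, where 4.27% were. Eggshell and yolk genes were called higher in migratory cells in 5 of 15 cases in the slbo mutant and 3 of 15 in wild type. Germline genes were in 0 and 1 of 10 cases and muscle genes in 1 and 0 of 13, and Pxn was not called. The ratio of 5' to 3' GAPDH control signal, a measure of RNA integrity, was 0.0932 to 0.150 in slbo migratory and 0.134 to 0.184 in slbo nonmigratory arrays, which overlapped. In wild type it was 0.0783 to 0.0947 in migratory and 0.158 to 0.20 in nonmigratory arrays, without overlap. The part of cell makeup and RNA integrity in the values of the 5 genes was not tested. In these bulk samples fewer cells of a type and less RNA per cell cannot be told apart.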

How the data were processed

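The values were signal intensities from MAS5 per the submitters' processing notes, with no version given, and were used as deposited by the authors. Arrays had trimmed means of 150.026 to 150.030 after trimming 2% at each end. Of 14010 probe sets, 44 were controls, 12442 had 1 gene, 327 several and 1197 none in GEO's platform annotation. A gene with several probe sets was represented by the brightest, by mean log2 signal. The offset added before taking log2 was 5% of the trimmed mean. Among 12367 features, the 8978 above an array's 40th percentile on at least 3 arrays were tested. A model with a mean for each of the 4 groups was fitted with limma 3.58.1 (R 4.3.3), letting the prior variance follow intensity, which left 8 residual degrees of freedom for 5 comparisons. p-values were adjusted by Benjamini-Hochberg over all features. The number of arrays limits the precision. The fits were also run on simulated data with normal noise and no background floor. The outcome is not given here, and such data do not cover signals under background.

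The members and gene lists were chosen with earlier results of these data known. The rule for named genes took the 5 genes and slbo. From each family list it took up to 4 called genes with the lowest adjusted p, or up to 2 with the largest difference where none was called. It took up to 10 genes called lower in both fractions, and the 6 and 4 genes with the highest r to the 5, in each case only symbols other than CG or CR numbers. veil, Dph2, CHKov2, JhI-26 and the listed markers were picked out after their values were seen. The settings tried instead were a stricter filter at the 60th percentile or none, quantile normalization, centring on medians, 1% or 20% of the trimmed mean added, no trend, array weights, fits of only the groups compared, every probe set, a replicate block, leaving out each array, and, chosen after seeing the data, signals raised to background. Python 3.11.15 prepared tables and figures.

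The main fit did not pair arrays by replicate number. Correlations of same-numbered arrays' deviations from their group means ran from -0.076 to 0.083 over 12 pairs. With 3 arrays per group such values cannot exclude a pairing by preparation, and the replicate block is among the settings tried.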

Additional observations from a re-analysis of the deposited data

How the results depend on the processing

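The log2 difference of the 5 genes between slbo and wild type kept its sign under every alternative run, in both fractions, and 0 interactions of the 5 genes were called under any. The count of features called in slbo against wild-type migratory cells was 174, and became 100 without the intensity trend, 115 with only the groups compared and 79 to 189 when 1 array was left out (79 without slbo migratory replicate 1, 98 without slbo migratory replicate 3). After median centring the split was 84 higher and 126 lower, in place of 102 higher and 72 lower, and the median of all features was -0.11. In nonmigratory cells 60 became 16 without the trend and 16 to 71 with 1 array left out (30 and 29 without wild-type nonmigratory replicates 1 and 2, and 25, 16 and 26 without slbo nonmigratory replicates 1, 2 and 3). The interaction had 0 calls, and 0 to 2 with 1 array left out, the 2 without wild-type migratory replicate 3. Between fractions 801 calls in the slbo mutant became 436 without the trend and 375 to 974 with 1 array left out (443 without slbo migratory replicate 2, 375 and 441 without slbo nonmigratory replicates 1 and 2), and 825 calls in wild type became 503 without the trend, 495 with only the groups compared and 450 to 963 with 1 array left out (523 and 534 without wild-type migratory replicates 1 and 3, 450 without wild-type nonmigratory replicate 2); median centring gave 366 higher and 273 lower in wild type, in place of 383 and 442.

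Features called lower in both fractions numbered 3 without the trend and 20 with array weights. Between the slbo mutant fractions the sign turned for CG4962 with signals raised to background (log2 0.14) and without slbo nonmigratory replicate 3 (range with 1 array left out -0.63 to 0.25), for Dph1 without slbo migratory replicate 3 (range -0.34 to 0.061), and for slbo itself without slbo nonmigratory replicate 1 or 3 (range -0.87 to 0.050). None of these was called. slbo was no longer called lower in migratory cells without slbo migratory replicate 1 (adjusted p = 0.0513), slbo migratory replicate 3 (adjusted p = 0.0607) or wild-type migratory replicate 1 (adjusted p = 0.0611).

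With the replicate block the counts were 175, 65, 0, 781 and 801 in the 5 comparisons, and in slbo migratory against nonmigratory cells CHKov1 lost its call (adjusted p = 0.0606) and Mur2B gained one (adjusted p = 0.0426); it changed no other call of the 5 genes. The signals of CG4962 and NT5E-2 in the mutant are limited by background. With 20% of the trimmed mean added their falls were -4.62 and -2.50 in migratory and -3.07 and -1.86 in nonmigratory cells, and with signals raised to background -4.76 and -2.58, and -3.45 and -1.78. The cause of the other changes was not tested.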

Other observations

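The genes that flank the 5 were looked up in the RefSeq annotation of the fly genome after the values were seen. Of the 2 nearest protein-coding genes on each side, 20 in all, 18 were measured and 13 tested. Of these 13, 0 were called lower or higher in slbo than in wild-type cells, in migratory or in nonmigratory cells. Of all features 1.94% were called in migratory and 0.668% in nonmigratory cells, so 0 of 13 says little about the flanking genes. Beside CG4962, CG13045 had log2 differences of 0.63 (adjusted p = 0.629) in migratory and -0.60 (adjusted p = 0.762) in nonmigratory cells. Beside Mur2B, the transcription factor gene br had -0.57 (adjusted p = 0.710) and 0.07 (adjusted p = 0.979). Larger differences were seen for Nmdar2, placed 2 genes from Mur2B, at 1.08 (adjusted p = 0.307) and 1.61 (adjusted p = 0.175). Dnai2, beside Dph1, had 0.39 (adjusted p = 0.828) and -1.14 (adjusted p = 0.502), the lowest value of the 13 in nonmigratory cells. Of the flanking genes CG10560, placed 2 genes from CHKov1, had the lowest adjusted p in migratory cells (log2 1.83, adjusted p = 0.104).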
